A study of Mus musculus with 8 samples.

Results

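The RNAs described here are the small nucleolar RNAs (snoRNAs) and the small Cajal body-specific RNAs (scaRNAs) in NMuMG, a cell line of mouse mammary epithelium from a normal gland. They were chosen by name, as every row of the deposited count table whose gene symbol begins with Snora, Snord or Scarna in any letter case. This gave 1421 of 37310 rows, namely 1031 box H/ACA snoRNAs (Snora), 347 box C/D snoRNAs (Snord) and 43 scaRNAs. RNA was sequenced from control cells and from *Lnc-Nr6a1*-depleted cells (genotype KO in the labels), each left untreated or given TGF-β1 at 10 ng/mL for 2 h, with 2 biological replicates in each of the 4 groups. The depleted cells carry a CRISPR-Cas9 deletion at the *Lnc-Nr6a1* promoter and first exon and were grown from sorted single cells. The sources used here do not give how many clones were sequenced, so that effects of the deletion and of a clone cannot be told apart.

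SnoRNAs guide chemical modification of other RNAs by base pairing. Box C/D snoRNAs carry the fibrillarin complex, which methylates the ribose of ribosomal and spliceosomal RNA, and box H/ACA snoRNAs carry the dyskerin complex, which turns uridine into pseudouridine. ScaRNAs have the same boxes, gather in Cajal bodies and guide modification of the spliceosomal RNAs. Most snoRNAs of vertebrates have no promoter of their own and are cut out of introns of host genes, many of which encode ribosomal proteins or other parts of the translation machinery.

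The libraries held between 4297832 and 13574397 counts. *Gm13507*, the row that holds *Lnc-Nr6a1*, had 3 and 14 counts in untreated control cells, 25 and 35 in treated control cells, 11 and 7 in the untreated libraries of depleted cells and 0 and 0 in the treated ones. The untreated libraries were thus not separated by the targeted gene, and all libraries of depleted cells are called libraries labelled knockout below. Of 6 epithelial markers, *Cdh1*, *Krt8*, *Krt18* and *Krt19* were at 193 CPM or more in every library, whereas *Cldn3* had no count and *Epcam* at most 2. *Thy1* had no count, and *Col1a1* reached 4.24 CPM, *Pdgfrb* 0.482, *Pecam1* 0.362 and *Ptprc* 0.212. CPM are counts in each 1000000 of a library's total, scaled by edgeR's TMM factors.

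The sequences that carry the results below are those of 7 of the 8 members that passed the test in a comparison (all but *Snora74a*) and of the most abundant H/ACA and C/D RNA. They are printed 5′ to 3′ as DNA, on the strand of the RNA, from the mouse assembly NCBIM37 (mm9). Capitals mark the boxes, which are ANANNA (H box, the match nearest the middle) and ACA within the last 10 bases for the H/ACA RNAs, and ATGATGA or GTGATGA (C box) within the first 25 bases and CTGA (D box) within the last 20 for the C/D RNAs. In the scaRNAs a C box, a D box and a terminal ACA are marked where present. The *SNORA40* sequence has no ACA in its last 10 bases, and other matches to ANANNA are left in lower case. A match to these letters is a description and not a mapped box. *Scarna10*, with 325 bases, is shown by its first 60 and its last 60 bases (266 to 325).
SNORA32: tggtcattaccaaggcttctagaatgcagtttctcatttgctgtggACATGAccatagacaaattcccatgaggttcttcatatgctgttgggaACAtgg
SNORA25: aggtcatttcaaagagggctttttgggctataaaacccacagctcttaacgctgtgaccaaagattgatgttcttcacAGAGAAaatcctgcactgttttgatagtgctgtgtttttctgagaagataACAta
SNORA40 (*Rps16* intron): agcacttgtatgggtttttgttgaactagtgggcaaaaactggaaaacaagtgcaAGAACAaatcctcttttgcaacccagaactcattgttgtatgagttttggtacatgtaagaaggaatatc
Snora73b: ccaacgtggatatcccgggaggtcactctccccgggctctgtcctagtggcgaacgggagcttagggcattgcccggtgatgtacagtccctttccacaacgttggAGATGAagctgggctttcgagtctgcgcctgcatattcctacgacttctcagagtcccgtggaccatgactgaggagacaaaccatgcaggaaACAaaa
Snord15a: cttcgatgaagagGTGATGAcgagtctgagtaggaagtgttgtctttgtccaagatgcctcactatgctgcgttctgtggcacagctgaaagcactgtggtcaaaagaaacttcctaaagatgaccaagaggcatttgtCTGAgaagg
Snord17: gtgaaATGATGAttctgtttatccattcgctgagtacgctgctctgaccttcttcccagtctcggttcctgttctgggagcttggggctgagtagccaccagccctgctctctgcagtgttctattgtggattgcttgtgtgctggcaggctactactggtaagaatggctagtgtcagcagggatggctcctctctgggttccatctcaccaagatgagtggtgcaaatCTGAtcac
Scarna10, first bases: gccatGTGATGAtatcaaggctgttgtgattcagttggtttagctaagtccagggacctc
Scarna10, last bases: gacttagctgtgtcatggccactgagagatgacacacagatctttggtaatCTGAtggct
Scarna13: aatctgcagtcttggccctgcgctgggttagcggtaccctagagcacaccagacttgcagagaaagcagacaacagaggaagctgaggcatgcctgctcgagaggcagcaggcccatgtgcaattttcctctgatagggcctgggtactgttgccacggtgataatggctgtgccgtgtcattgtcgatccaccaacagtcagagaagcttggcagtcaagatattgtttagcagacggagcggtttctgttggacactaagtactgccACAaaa
SCARNA6: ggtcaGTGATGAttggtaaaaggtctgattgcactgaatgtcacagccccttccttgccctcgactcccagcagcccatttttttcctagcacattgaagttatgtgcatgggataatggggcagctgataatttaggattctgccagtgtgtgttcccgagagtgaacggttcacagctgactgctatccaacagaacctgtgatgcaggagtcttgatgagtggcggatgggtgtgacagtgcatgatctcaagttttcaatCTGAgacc

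*SNORA32* (ENSMUSG00000065265) lies at chr9:15120933-15121032 and *SNORA25* (ENSMUSG00000065663) at chr9:15121120-15121252, both on the plus strand in introns of *Taf1d* and 87 bases apart. *SNORA40* (ENSMUSG00000077711) lies at chr7:29136527-29136651 on the plus strand, in an intron of *Rps16*. *Snora73b* lies at chr4:131908237-131908441 on the minus strand in an intron of *Rcc1* and also overlaps an exon of *Gm17300*. *Snord15a* lies at chr7:106631295-106631442 on the minus strand in an intron of *Rps3*, and *Snord17* at chr2:144091715-144091952 on the minus strand in an intron of *Snx5*. Of the scaRNAs, *Scarna10* lies at chr6:125136377-125136701 on the minus strand in an intron of *Ncapd2*, and *SCARNA6* at chr1:89673513-89673784 on the plus strand in an intron of *Atg16l1*. *Scarna13* lies at chr12:106269285-106269559 on the minus strand, outside any other gene of the annotation.

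Most annotated members were not seen in these libraries. No read was counted in any library on 1127 of the 1421 rows (79.3%), 89 rows had 1 to 9 counts in all and 205 had 10 or more. Members with no count made up 848 of 1031 H/ACA rows (82.3%), 260 of 347 C/D rows (74.9%) and 19 of 43 scaRNA rows (44.2%). A count of 0 in each of 8 libraries does not show that an RNA was absent, since the level of 3 counts lay between 0.238 and 0.661 CPM in single libraries, a limit that covers counting error only. The labels name a total RNA kit and the study's methods an mRNA kit. How far the kit set which members were counted, and at what level, was not tested.

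Repeated rows made up most of the silent ones. *SNORA17* stood on 611 rows, of which 591 had no count, and the 611 rows together held 132 counts. The imprinted brain snoRNAs *SNORD115*, with 137 rows, and *SNORD116*, with 27 rows, had no count in any library. How reads with several matches in the genome were counted is not given in the sources used here. Copies of rows outside the test were not searched, so that the silence of repeated rows does not show absence. Symbols written in capitals had 1092 of 1313 rows without a count (83.2%), while the 108 symbols in mouse style had 35 (32.4%). The rows of *SNORA17*, *SNORD115* and *SNORD116* are all among those in capitals. Neither these shares nor those by position were recomputed without them. The shares also differed by position. Among 303 rows in an intron of a gene on the same strand 72 had no count (23.8%), compared with 801 of 842 rows outside other genes (95.1%) and 176 of 188 rows within a gene on the other strand (93.6%). Rows that overlap an exon of another gene on the same strand had no count in 78 of 88 (88.6%).

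The boxes separated counted from silent H/ACA rows as a description. An ACA exactly 3 bases before the end was present in 47 of 62 H/ACA members that entered the test (75.8%), in 132 of 848 without a count (15.6%) and in 236 of all 1031 (22.9%). When *SNORA17* was left out, 132 of 257 silent rows carried it (51.4%). An ACA in the last 10 bases together with an ANANNA in the middle (30 to 70% of the length) was found in 55 of the 62 tested members (88.7%) and in 443 of the 848 silent ones (52.2%). For the C/D rows the shares lay closer to each other. Both boxes were found in 20 of 30 tested members (66.7%) and in 194 of 260 silent ones (74.6%), and CTGA alone in all 30 tested members and in 239 of the 260 (91.9%). Of the 12 tested scaRNAs, 4 carried a C and a D box and 6 an ACA in the last 10 bases (50.0%). Of the 19 silent scaRNAs, 0 carried both a C and a D box and 15 an ACA in the last 10 bases (78.9%).

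The members together received 107115 counts, or 0.113 to 0.185% of the counts of a library. H/ACA RNAs took 0.0597 to 0.106%, C/D RNAs 0.0136 to 0.0216% and scaRNAs 0.0355 to 0.0579%. A few RNAs supplied most of them. The 10 with the most counts held 67.4% of all member counts, *Snora73b* alone 24.6% of the H/ACA counts, *Snord17* 38.5% of the C/D counts and *Scarna10* 45.7% of the scaRNA counts.

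Counts went with the length of the RNA. The longest row, a *Snord123* row of 1482 bases, had no count. The other 17 rows of 200 bases or more held 52.7% of the member counts, and the 266 rows shorter than 80 bases, 248 of which are C/D RNAs, held 3.66%. Whether fragments were selected by size in library preparation is not given in the sources used here, and its part in this pattern was not tested. Per length, as mean CPM per kb over the 8 libraries, *Snora73b* was the most abundant H/ACA member (992), followed by *Snora74a* (691), the *SNORA73* row ENSMUSG00000064380 in *Rpsa* (444), *Snora78* in *Snhg9* (442) and *SNORA32* (333). SNORA73 and SNORA74 are known as U17 and U19, and the U17 family acts in cutting the precursor of 18S ribosomal RNA rather than in modification. The C/D RNAs were led by *Snord17* (276), *Snord104* (124), *SNORD101* in *Rps12* (118), *Snord118* (74.8), the U8 RNA of ribosomal RNA processing, and the *SNORD12* row ENSMUSG00000077565 (63.6). *Scarna10* (645) led the scaRNAs before *SCARNA21* in *Chd3* (395), *Scarna13* (264), *Scarna2* (140) and *SCARNA6* (111). In 10 members a library held more counts than there are start positions for 75-base reads on both strands (3040 counts against 798 positions for *Scarna10*). The study's methods describe removal of duplicates from single reads, which leaves at most 1 read for each start and strand. These 10 members exceeded that number in a library. The labels describe paired reads, and which reads and processing the deposited counts come from was not tested.

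Copies limit some of these values. *Snora73b* and *Snora73a* were identical at 198 of 205 aligned bases (96.6%), and 4 of the 104 tested members had a stretch with at least 98% identity elsewhere in the genome. The stretch had to hold at least 75 bases, or most of the length of a shorter member. *SNORA25* was one of them, with 4 such places and a best match of 100%, so that reads on it may stem from, or be lost to, other copies. For *SNORA32* the best match elsewhere was 94.4% identical. The *SNORA40* rows in *Rps16* and in *Taf1d* were identical at 73.9% of aligned bases, and *SCARNA6* and *Scarna6*, 2 rows in *Atg16l1* whose symbols differ only in letter case, at 62.6%. A host as annotated here lies on the strand of its member, so that reads of a host's precursor RNA and of the member cannot be told apart by strand. How strand was treated in counting is not given either, so that reads of a gene on the other strand may also be counted on a member.

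The 104 members that passed edgeR's filter on low counts, 62 H/ACA RNAs, 30 C/D RNAs and 12 scaRNAs, are the basis of the comparisons. Of these 48 share their symbol with other rows. A host gene on the same strand was annotated for 93 of them, 68 hosts in all, and 27 members lay in ribosomal protein genes and 4 in *Snhg* genes. *Taf1d* held 7, *Rpl4* 4, and *Rps12* and *Rpsa* 3 each. The filter asked for 1.13 CPM in at least 2 libraries, which 56 members reached in all 8 libraries and 5 only in the 2 libraries of 1 group. Counts and medians below describe these members only. The untested members with the most counts, *SNORA22* (ENSMUSG00000065304), *Scarna9* and *SNORD83* (ENSMUSG00000065273), had at most 15 counts in a library.

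Replicates differed more for these RNAs, and for other short RNAs, than over all genes. The sets were not matched by level, and the part of low counts in this difference was not tested. The median absolute difference between the 2 replicates of a group, in log2 CPM, was between 0.45 and 0.73 over the 104 members and between 0.20 and 0.33 over all 13028 genes tested. With 0.5 CPM added, the 74 tested rows of biotypes snRNA and misc_RNA had medians of 0.58, 0.72, 0.53 and 0.33 in untreated control, treated control, untreated and treated libraries labelled knockout, and the H/ACA members 0.74, 0.71, 0.49 and 0.43. *Snora78* was at 64.0 CPM in replicate 1 and 10.1 in replicate 2 of untreated control cells, and at 91.1 and 15.1 in treated control cells. The libraries labelled knockout were at 136 and 67.5 CPM untreated and 26.0 and 42.3 treated. The ratio between the 2 replicates of control cells was larger, both untreated and treated, than that between any pair of group means.

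Other members, like *Snora78* and *Snord118* chosen here after their replicate values were seen, split in the same direction or the opposite one. *Snora68* was at 14.2 and 5.37 CPM in untreated and 26.2 and 6.98 in treated control cells. *Snora23* was higher in replicate 2, at 2.53 and 9.40 CPM untreated and 2.44 and 21.0 treated, and so was *Snord118*, at 3.98 and 11.0 and at 6.84 and 22.4. *Scarna10*, by contrast, was at 153 and 144 CPM in untreated and at 285 and 250 in treated control cells, and its replicates lay close together. Among 63 members with a mean of at least 2 CPM, 40 had the same sign of the replicate difference in untreated and in treated control cells, with a Pearson correlation of 0.54 and a Spearman correlation of 0.43 across members. In the libraries labelled knockout the sign was shared by 28 of 63, with a Pearson correlation of -0.13 and a Spearman correlation of -0.17. These are correlations across genes that share their libraries, and genes are not independent replicates.

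**Figure D1:**
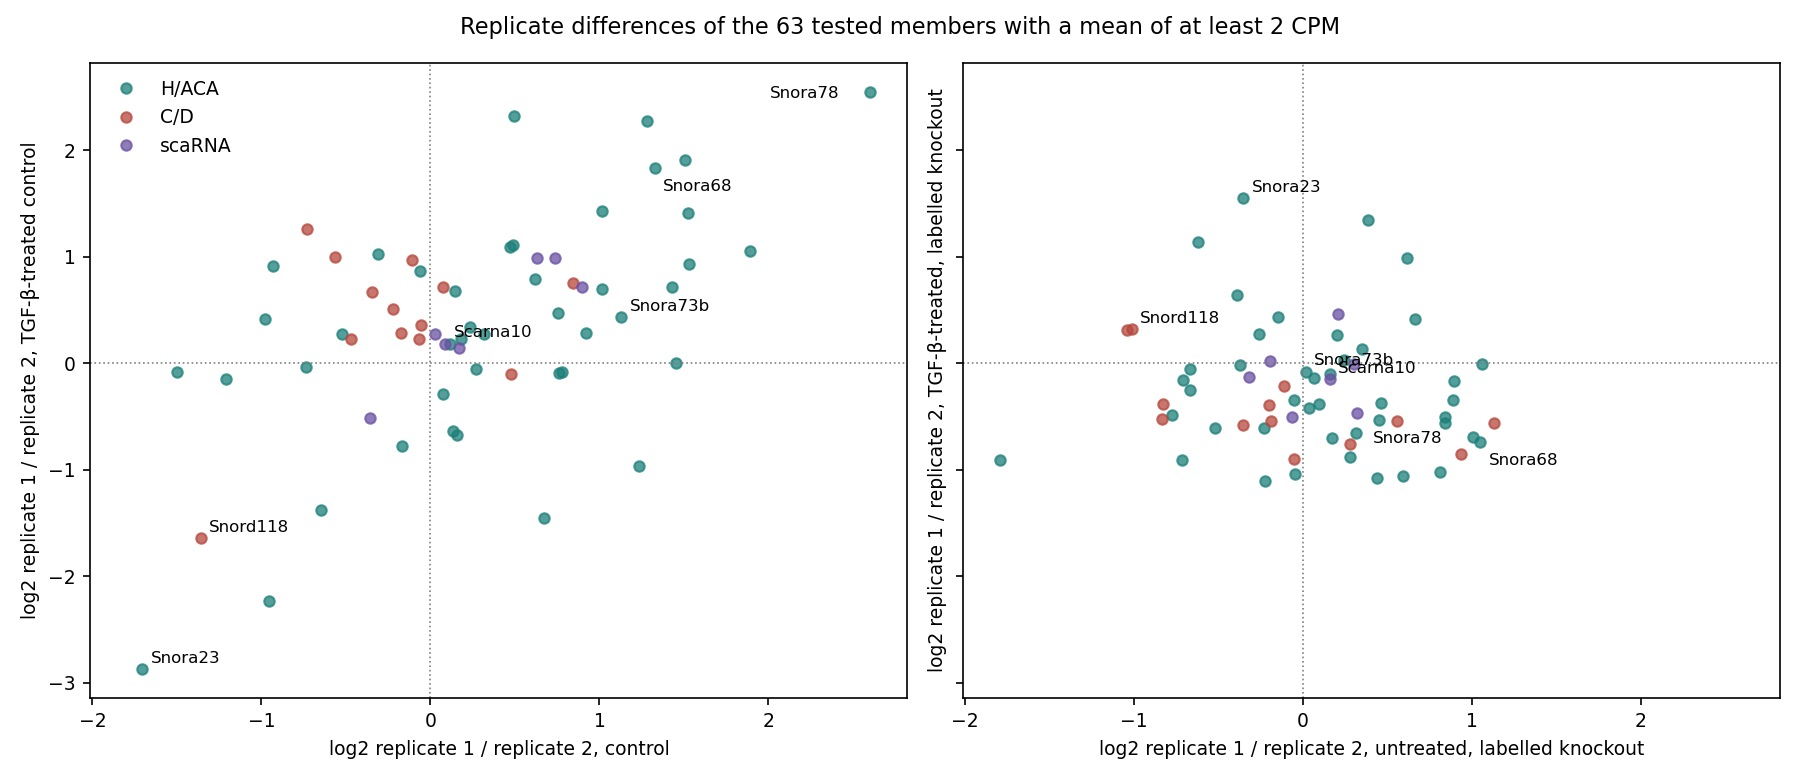
The log2 ratio of replicate 1 to replicate 2 (with 0.5 CPM added) in untreated libraries (x axis) is plotted against that in TGF-β-treated libraries (y axis), for control cells on the left and libraries labelled knockout on the right, with 1 point for each of 63 members coloured by class. In control cells *Snora78* stands at the upper right and *Snora23* and *Snord118* at the lower left, whereas *Scarna10* lies near the centre.

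The first comparison asked how snoRNAs differ between the genotypes without TGF-β. Of the 104 members, none was higher and 2 were lower in the libraries labelled knockout, the box H/ACA RNAs *SNORA32* and *SNORA25*, both from *Taf1d* introns. The share called, 1.92%, lay near that of all genes tested (1.83%; 0.798% were lower). A feature was called at an adjusted p below 0.05 in edgeR's quasi-likelihood test, adjusted by the Benjamini-Hochberg method over all 13028 genes, with an absolute log2 fold change above 0.5. At an unadjusted p below 0.05 the members numbered 11 (10.6%, against 14.9% of all genes). With only the 4 untreated libraries in the fit 5 members were called, and without a filter on low counts 8, of which 3 were higher. Fits without the filter, here and below, also tested members beyond the 104. Shares of members and of all genes belong to the main fit of all 8 libraries with the filter. As these are bulk samples, fewer cells with a given RNA and less of it per cell cannot be told apart.

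*SNORA32*, which guides pseudouridylation of ribosomal RNA, had 48.1 and 69.3 CPM in untreated control cells and 13.2 and 21.3 in the untreated libraries labelled knockout. Both values of the latter lay below both control values, and the log2 fold change was -1.74 with a standard error of 0.26 (adjusted p = 0.0133). Without control replicate 2 or KO replicate 1 the adjusted p was 0.105 and 0.119. *SNORA25*, also a guide of ribosomal RNA, had 13.8 and 13.1 CPM in control cells, while the libraries labelled knockout had 3.75 and 3.19 and again did not overlap with them. Its log2 fold change was -1.96 ± 0.30 (SE, adjusted p = 0.0144), and the adjusted p was 0.0922 to 0.144 when any of the 4 untreated libraries was left out. KO replicate 1 was the shallowest library, with 4297832 counts.

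The other 5 members in *Taf1d* introns were not called. *SNORA18* was at 3.74 and 4.76 CPM in control cells, against 5.73 and 5.58 in the libraries labelled knockout (log2 fold change 0.41 ± 0.43). *SNORA8* was at 4.46 and 13.5 CPM in control cells and at 4.41 and 7.04 in those labelled knockout, with overlap (-0.62 ± 0.56). *SNORA1* (-0.68 ± 0.50), the *SNORA40* row of *Taf1d* (-0.72 ± 0.98) and the C/D RNA *SNORD5* (-1.04 ± 0.69) had negative values that did not pass the test. *Taf1d* itself, which encodes a subunit of the RNA polymerase I factor SL1, was at 91.7 and 112 CPM in control cells, against 81.8 and 67.1 in the libraries labelled knockout (-0.45 ± 0.17, adjusted p = 0.253). Whether the members differ from their host or from each other was not tested.

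**Figure D2:**
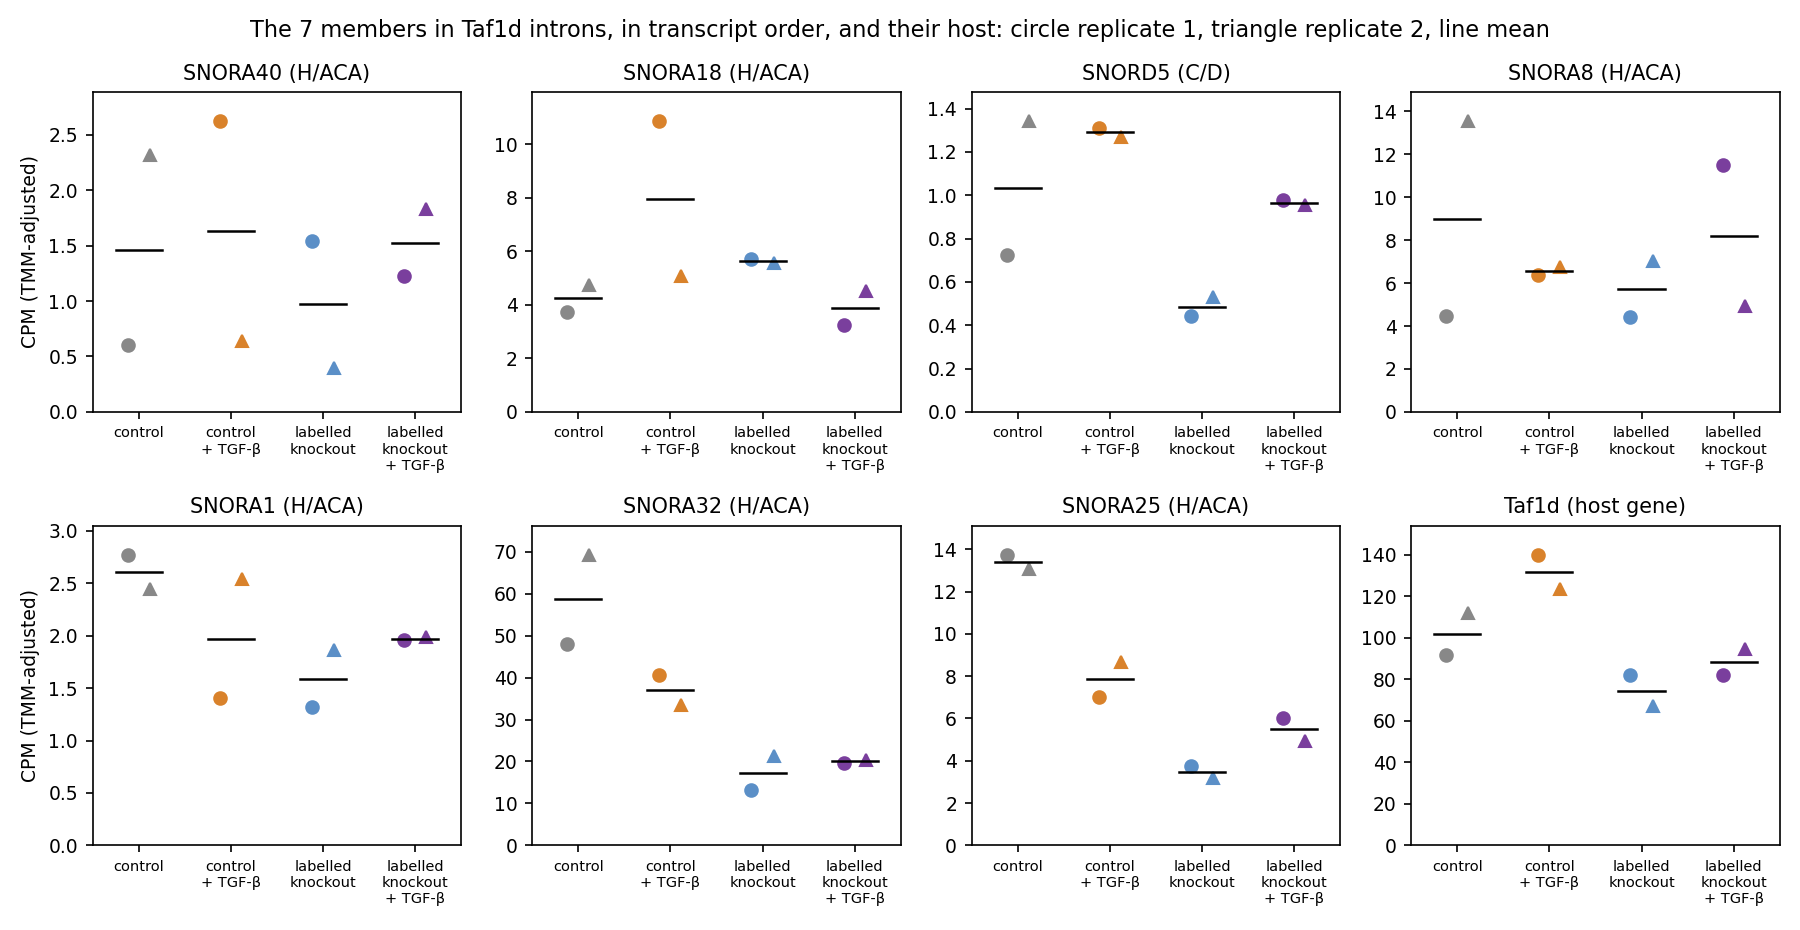
Each panel gives the TMM-adjusted CPM (y axis, from 0) of 1 of the 7 members in *Taf1d* introns, in the order of the transcript, or of *Taf1d*, in the 4 groups (x axis), with a circle for replicate 1, a triangle for replicate 2 and a line at the mean. *SNORA32* and *SNORA25* have their highest values in untreated control cells, at 48.1 and 69.3 and at 13.8 and 13.1 CPM, while *SNORA8* in untreated control cells, at 4.46 and 13.5 CPM, differs widely between replicates.

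By class, the median log2 fold change between untreated genotypes was 0.14 for the H/ACA, -0.26 for the C/D and 0.21 for the scaRNA members, beside 0.02 over all genes, and the median standard error of a member was 0.59. Above 0 were 35 of 62 H/ACA, 12 of 30 C/D and 10 of 12 scaRNA members, compared with 52.0% of all genes. The snRNA and misc_RNA rows had 47 of 74 above 0 and a median of 0.44. Without control replicate 1 the C/D median was -0.61 and the scaRNA median 0.63, without control replicate 2 the C/D median was 0.03, and over all alternatives the H/ACA median ranged from 0.02 to 0.19, the lowest without control_TGFb2h replicate 1. *Scarna10* came nearest to a call, with 153 and 144 CPM in control cells, against 236 and 212 in the libraries labelled knockout (0.59 ± 0.14, adjusted p = 0.0785).

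With TGF-β, no member was called above control cells in the libraries labelled knockout and 3 were called below, 1 of each class. None of the 3 was called when only the 4 treated libraries entered the fit, and without a filter on low counts 11 members were called. The 3 calls of the main fit were 2.88% of the 104 members, beside 15.0% of all genes tested (6.57% lower). The 14 members with an unadjusted p below 0.05 were 13.5%, beside 31.4% of all genes. The scaRNA *SCARNA6*, known as a guide of spliceosomal RNA modification, was at 37.5 and 53.7 CPM in treated control cells and 24.1 and 24.2 in the treated libraries labelled knockout, without overlap. Its log2 fold change was -0.92 ± 0.22 (adjusted p = 0.0251), with an adjusted p of 0.107 without control_TGFb2h replicate 2, 0.0850 without KO_TGFb2h replicate 1 and 0.124 without KO_TGFb2h replicate 2. *Scarna6*, in the same host, had 28.6 and 17.1 CPM in treated control cells and 12.4 and 17.3 in those labelled knockout (-0.62 ± 0.35), with overlap. Their host *Atg16l1*, an autophagy gene, was at -0.03 ± 0.18.

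*Snord15a*, a box C/D guide of ribosomal RNA methylation, had 11.0 and 11.7 CPM in treated control cells and 3.67 and 4.93 in the treated libraries labelled knockout. The groups did not overlap, and the log2 fold change was -1.40 ± 0.35 (adjusted p = 0.0285). The adjusted p was 0.0705, 0.125 and 0.0918 without control_TGFb2h replicate 2, KO_TGFb2h replicate 1 and KO_TGFb2h replicate 2. Its host *Rps3*, a ribosomal protein gene, was lower too, at 1780 and 1395 CPM in treated control cells and 885 and 958 in the treated libraries labelled knockout (-0.78 ± 0.15, adjusted p = 0.0101).

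*SNORA32* was also lower after TGF-β, at 40.7 and 33.5 CPM in control cells, against 19.6 and 20.4 in the libraries labelled knockout (-0.89 ± 0.25, adjusted p = 0.0417). Its adjusted p passed 0.05 when any library but control_TGFb2h replicate 2, KO replicate 1 and KO replicate 2 was left out, with 0.0520 and 0.0534 without control replicate 1 and 2 and 0.0969, 0.127 and 0.159 without control_TGFb2h replicate 1, KO_TGFb2h replicate 1 and 2. *SNORA25* had 7.03 and 8.68 CPM in control cells, against 6.03 and 4.93 in the libraries labelled knockout (-0.52 ± 0.27, adjusted p = 0.229). *Taf1d* was called lower (-0.58 ± 0.17, adjusted p = 0.0473). Of the 68 hosts, 15 were called in this comparison, beside 15.0% of all genes, and 2 members, *SNORA32* and *Snord15a*, were called together with their host.

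Most members had negative values in this comparison. Below 0 lay 77 of 104, namely 46 of 62 H/ACA, 25 of 30 C/D and 6 of 12 scaRNA members, while 49.1% of all genes lay above 0. The median log2 fold change was -0.36, with -0.29 for H/ACA, -0.47 for C/D and -0.12 for scaRNA members, beside -0.01 over all genes and a median standard error of 0.55. The H/ACA and C/D medians were below 0 under every alternative run, including each change of scaling, at -0.10 for H/ACA without KO_TGFb2h replicate 1 and at -0.80 for C/D without KO_TGFb2h replicate 2, while the scaRNA median was above 0 without control_TGFb2h replicate 1 (0.21) and without KO replicate 1 (0.07). Short RNAs that are not members, the rows of biotypes snRNA and misc_RNA, had 64 of 74 tested rows below 0 and a median of -0.78. The part of RNA recovery or library preparation in these shifts was not tested.

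**Figure D3:**
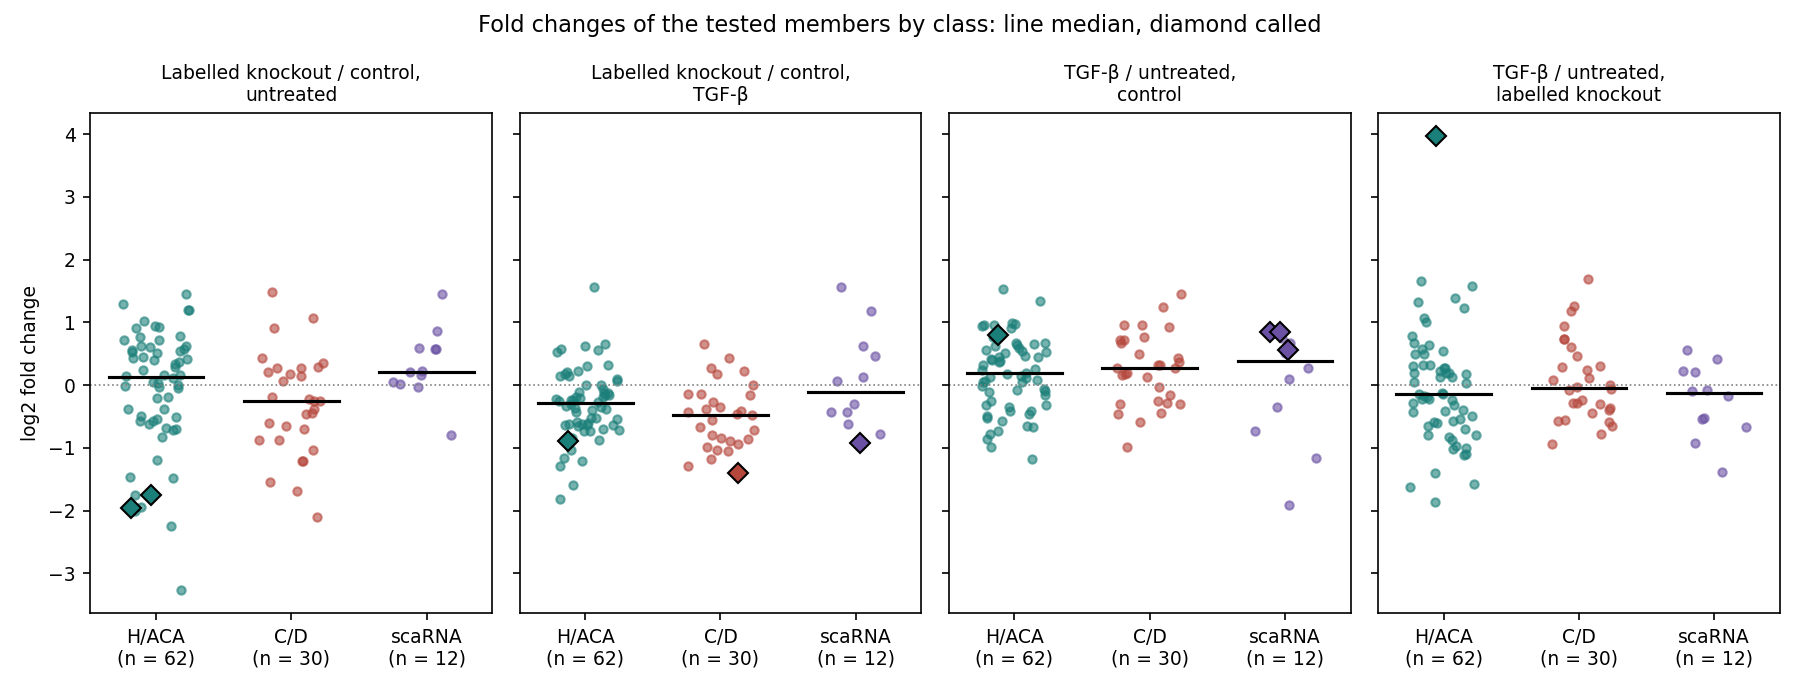
Log2 fold changes (y axis) of the 104 tested members are shown for the 4 comparisons, with a point for each member by class (x axis), a line at the class median and a diamond for each called member. Called members were 2, 3, 4 and 1 from left to right, and in the second panel 77 of 104 lie below 0.

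TGF-β in control cells raised 4 members and lowered none, the scaRNAs *Scarna10*, *Scarna13* and *SCARNA6* and the H/ACA RNA *Snora74a*. They were 3.85% of the members, beside 9.16% of all genes (4.69% higher), and 10 members had an unadjusted p below 0.05 (9.62%, beside 26.8% of all genes). With only the 4 libraries of control cells in the fit 1 member was called, with a replicate block 2, and without a filter on low counts 10, of which 1 was lower. *Scarna10*, a guide of spliceosomal RNA modification, went from 153 and 144 to 285 and 250 CPM, a log2 fold change of 0.85 ± 0.14 (adjusted p = 0.00771). Both treated values lay above both untreated ones. The adjusted p was 0.0779 without control replicate 1 and 0.0745 without control replicate 2. Its host *Ncapd2*, a condensin subunit, moved the other way, from 152 and 130 to 70.1 and 94.9 CPM (-0.77 ± 0.21, adjusted p = 0.0497).

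*Snora74a*, in an intron of *Snhg4*, had 105 and 87.0 CPM untreated and 165 and 171 with TGF-β (0.81 ± 0.16, adjusted p = 0.0189). The groups were apart, and the adjusted p was 0.0843 and 0.136 without control replicate 1 and 2. *Snhg4*, whose spliced RNA is noncoding, was at 23.5 and 26.0 CPM untreated and 25.7 and 27.2 treated (0.09 ± 0.20). *Scarna13* rose from 65.1 and 57.9 to 95.3 and 86.2 CPM (0.56 ± 0.15, adjusted p = 0.0451), a call that was lost without any of the 8 libraries (adjusted p 0.0509 to 0.241). *SCARNA6* rose from 22.1 and 28.4 to 37.5 and 53.7 CPM (0.85 ± 0.22, adjusted p = 0.0459), and kept its call only without control_TGFb2h replicate 1 among the 8 libraries left out in turn, with an adjusted p of 0.0574 to 0.296 without each of the others.

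The abundant H/ACA RNAs with wider replicates had values of similar size that did not pass. *Snora73b* was at 214 and 97.8 CPM untreated and 282 and 209 with TGF-β (0.65 ± 0.30, adjusted p = 0.201), so that untreated replicate 1 lay above treated replicate 2. The *SNORA73* row of *Rpsa* had 107 and 39.3 CPM untreated and 134 and 81.5 with TGF-β (0.56 ± 0.41). The scaRNA *SCARNA21* was at 45.6 and 44.8 and at 70.7 and 58.2 CPM (0.51 ± 0.17, adjusted p = 0.0919). The 2 *Taf1d* members that differed between genotypes had negative values, with *SNORA32* at -0.66 ± 0.25 and *SNORA25* at -0.77 ± 0.27 (adjusted p = 0.123 and 0.104).

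Over all members, 67 of 104 lay above 0 with a median of 0.25, of which 39 of 62 H/ACA (median 0.19), 20 of 30 C/D (0.27) and 8 of 12 scaRNA members (0.39), beside 51.4% and 0.02 of all genes. Without control_TGFb2h replicate 1 the medians of the H/ACA and C/D members were -0.02 and -0.17 and that of the scaRNAs 0.09, and without control replicate 1 that of the C/D members was -0.02. The highest medians were 0.40 for H/ACA members without control replicate 1, 0.66 for C/D members without control replicate 2 and 0.56 for scaRNAs with a minimum mean of 10 counts. The snRNA and misc_RNA rows moved with them, with 62 of 74 above 0 and a median of 0.76. Their summed level was 32044 and 29461 CPM in untreated and 52705 and 44430 in treated control cells, led by *7SK*, an abundant nuclear noncoding RNA that controls the elongation of transcription.

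In the libraries labelled knockout, 1 member was called higher with TGF-β and none lower, or 0.962% of the members beside 6.82% of all genes (4.25% higher), and 6 members had an unadjusted p below 0.05 (5.77%, beside 22.7% of all genes). With only these 4 libraries in the fit 3 members were called, with a replicate block 0, with DESeq2 2, and without a filter on low counts 6, of which 3 were lower. The member was *SNORA40* of the *Rps16* intron, with 0 and 1 counts untreated and 18 and 19 counts with TGF-β. It passed the filter on low counts only through the 2 treated libraries labelled knockout, the group in which it was high, so that its test is not independent of that selection, and with a minimum mean of 10 counts it was not tested. The level of 37 counts over 1 count was 18.0 times higher per library size (95% exact interval 3.03 to 728, counting error only), and the fitted log2 fold change was 3.97 ± 0.97 (adjusted p = 0.0411). In control cells it had 8 and 7 counts untreated and 7 and 3 with TGF-β, and the untreated genotypes did not overlap but were not called apart (-3.27 ± 1.06, adjusted p = 0.182). The call was lost without either untreated control library (adjusted p = 0.0920 and 0.0910), without KO replicate 1 or 2 (0.194 and 0.176) and without KO_TGFb2h replicate 1 or 2 (0.113 and 0.186).

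*Rps16*, its host, differed between groups as well. Ribosomal protein genes have near-identical processed copies in the genome, so that the values of *Rps16* and *Rps3* are uncertain. This ribosomal protein gene was at 12.7 and 10.7 CPM in untreated and 1.22 and 4.34 in treated control cells, and at 12.6 and 9.17 and at 21.7 and 20.8 CPM in the libraries labelled knockout. The treated libraries labelled knockout were above treated control cells (2.95 ± 0.45, adjusted p = 0.00467), and *SNORA40* was at 1.57 ± 0.63 in that comparison (adjusted p = 0.122). The *SNORA40* row in *Taf1d* had 7 and 3 counts in untreated and 15 and 23 in treated libraries labelled knockout (0.79 ± 0.94). The members whose p was next lowest in the libraries labelled knockout had negative values that were not called. *Snora7a* had 20.3 and 13.3 CPM untreated and 3.34 and 7.47 treated (-1.62 ± 0.57, adjusted p = 0.131), and the *SNORA55* row ENSMUSG00000065778 had 20.5 and 15.0 and 2.93 and 6.75 (-1.86 ± 0.69, adjusted p = 0.146). In untreated control cells the 2 replicates were at 13.3 and 4.27 CPM for *Snora7a* and at 13.0 and 4.27 for *SNORA55*. The class medians in the libraries labelled knockout were -0.14 for H/ACA, -0.04 for C/D and -0.13 for scaRNA members, beside 0 over all genes. The H/ACA median was 0.05 without control_TGFb2h replicate 1. The C/D median was above 0 without a filter on low counts (0.02) and without any 1 library other than KO_TGFb2h replicate 2, reaching 0.27 without KO replicate 2. The scaRNA median was below 0 under each alternative run, at -0.52 without either untreated control library and -0.07 without a filter. The snRNA and misc_RNA rows had 48 of 74 below 0 and a median of -0.32.

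The 3 calls by TGF-β of scaRNAs in control cells had smaller values in the libraries labelled knockout, where *Scarna10* was at 236 and 212 CPM untreated and 189 and 209 treated (-0.17 ± 0.14), *Scarna13* at 59.5 and 68.0 and at 74.6 and 73.4 (0.21 ± 0.15) and *SCARNA6* at 28.4 and 23.0 and at 24.1 and 24.2 (-0.08 ± 0.23). The difference between the responses of the genotypes was tested itself. With edgeR no member and none of the 13028 genes was called (0% of all genes). At an unadjusted p below 0.05 there were 11 members (10.6%, beside 8.70% of all genes), DESeq2 called 1 member, and edgeR without a filter on low counts called 5. The difference was -1.02 ± 0.20 for *Scarna10* (adjusted p = 0.392), -0.99 ± 0.23 for *Snora74a* (adjusted p = 0.430) and 4.84 ± 1.22 for *SNORA40* of *Rps16* (adjusted p = 0.438), which had entered the test through its high group alone. That no member was called with edgeR does not show that the responses were alike.

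**Figure D4:**
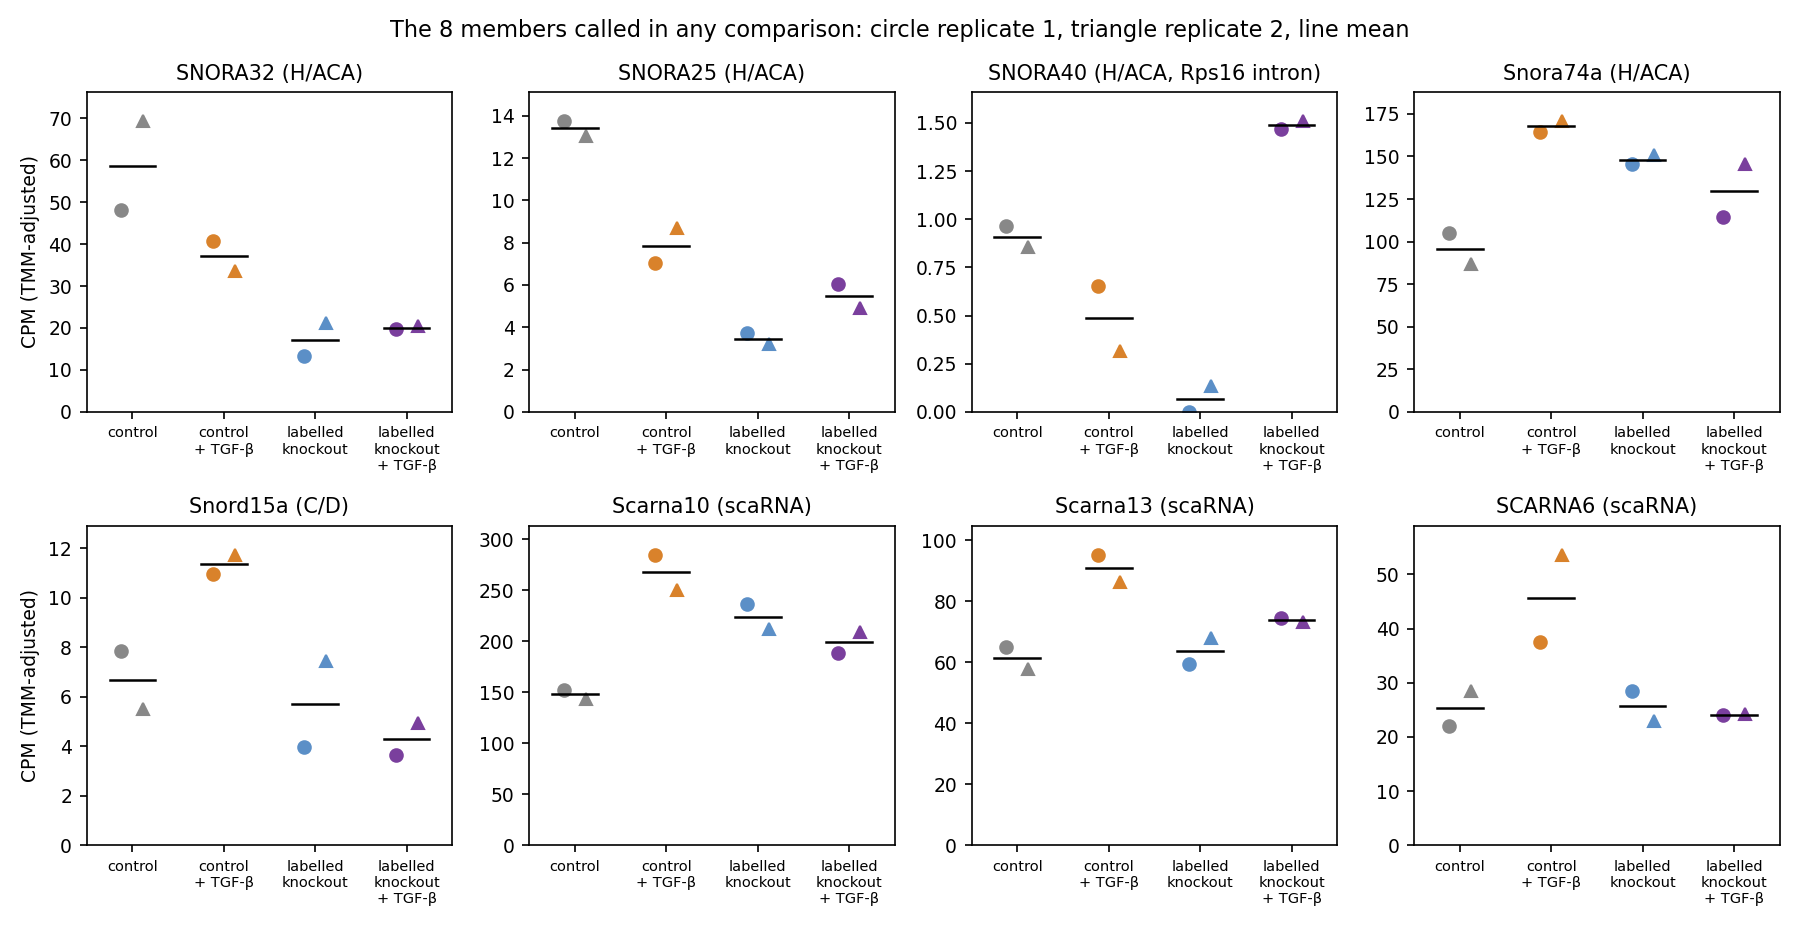
TMM-adjusted CPM (y axes, from 0) of the 8 members called in any comparison are plotted for the 4 groups (x axis), with a circle for replicate 1, a triangle for replicate 2 and a line at the mean. *SNORA32* and *SNORA25* are highest in untreated control cells, *Snora74a*, *Snord15a* and the 3 scaRNAs in treated control cells, and *SNORA40* in the treated libraries labelled knockout, at 1.47 and 1.51 CPM.

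The summed scaRNAs were at 389 and 338 CPM in untreated control cells, 609 and 513 in treated control cells, 476 and 461 in untreated and 414 and 460 in treated libraries labelled knockout. Treated control cells were highest and untreated control cells lowest, and both groups labelled knockout lay between them and next to each other. Without *Scarna10* treated control cells were still highest, at 324 and 263 CPM, while untreated control cells (237 and 194) overlapped with the treated libraries labelled knockout (225 and 250.5), and the untreated ones were at 239 and 249. The H/ACA sum was 871 and 569 CPM in untreated control cells, which enclosed the 850 of treated control replicate 2, the 866 of untreated KO replicate 2 and both treated libraries labelled knockout (668 and 778). Its untreated control replicates differed by more than the means of untreated and treated control cells, 720 ± 214 and 980 ± 184 (SD, n = 2). The C/D sum lay between 142 and 227 CPM in all 8 libraries. The snRNA and misc_RNA rows had the order of the scaRNAs, with the highest sums in treated control cells and the lowest in untreated ones. With 2 libraries in a group an exact permutation test of a single sum cannot go below p = 0.333, so none was run.

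**Figure D5:**
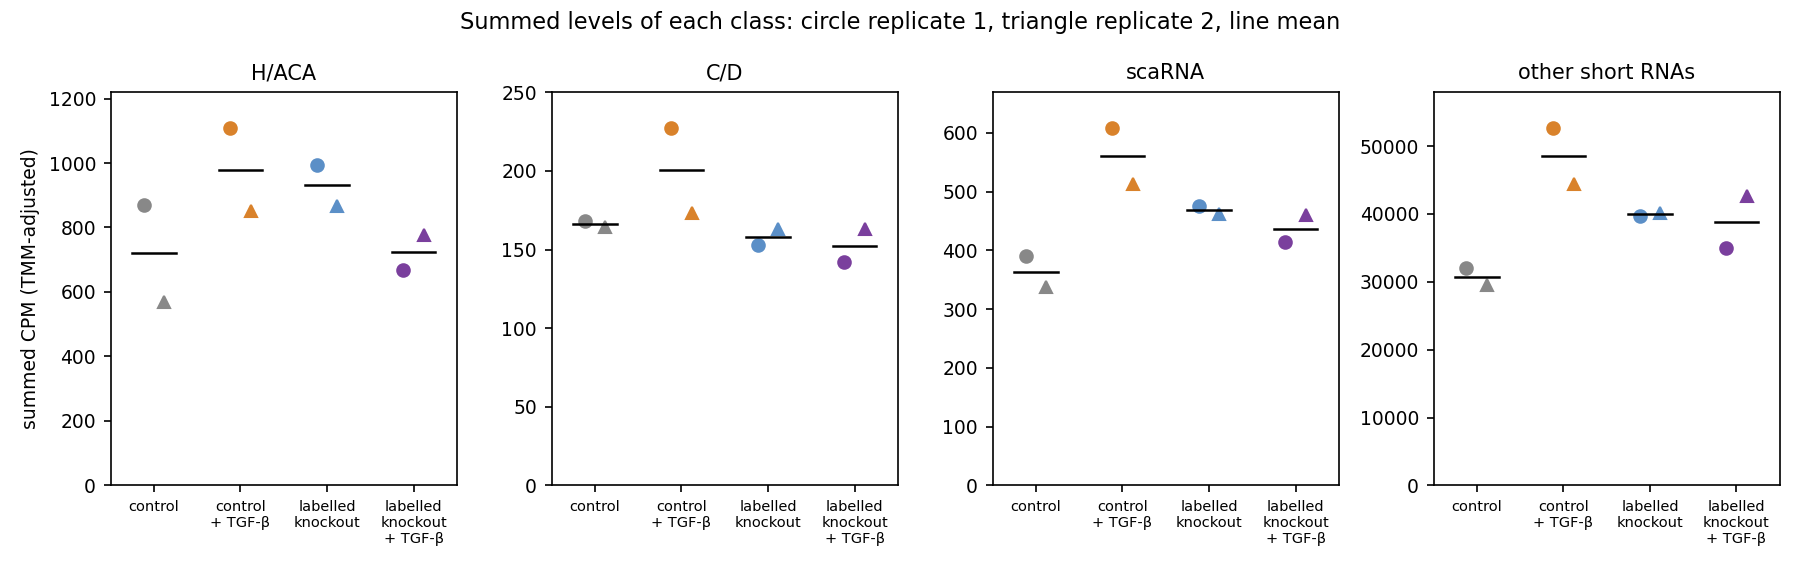
Summed TMM-adjusted CPM (y axes, from 0) of the H/ACA, C/D and scaRNA members and of the other short RNAs (snRNA and misc_RNA rows) in the 4 groups (x axis), with a circle for replicate 1, a triangle for replicate 2 and a line at the mean. The scaRNAs reach 609 and 513 CPM in treated control cells, above the other 6 libraries, and the other short RNAs are also highest there, at 52705 and 44430.

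Fold changes of members and hosts were set side by side for the 93 members with a host on the same strand. Both had the same sign in 43 members between untreated genotypes, in 62 between treated genotypes, in 57 for TGF-β in control cells and in 51 in the libraries labelled knockout, with Pearson correlations of 0.23, 0.33, 0.17 and 0.34 and Spearman correlations of 0.15, 0.14, 0.06 and 0.29 across members. Members of 1 host share its value, and these are correlations across genes within the same libraries. In both TGF-β comparisons and between untreated genotypes at most 1 member was called together with its host. The pair was *Scarna10* and *Ncapd2* for TGF-β in control cells, called in opposite directions (0.85 and -0.77).

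The proteins that build and carry these RNAs are described by a list of 28 genes, all tested, which holds core proteins, assembly factors, Cajal body and transport factors and end-trimming enzymes. Between untreated genotypes none was called with edgeR or DESeq2, 5 had an unadjusted p below 0.05 with edgeR (beside 14.9% of all genes), and 23 had values below 0, while 52.0% of all genes lay above 0. With TGF-β, 11 of the 28 had an unadjusted p below 0.05 with edgeR (beside 31.4% of all genes). The libraries labelled knockout were called below control cells in 6 of the 28 and above in none, beside 15.0% of all genes called and 6.57% called lower. The 6 were *Dkc1*, the pseudouridine synthase dyskerin (-0.77 ± 0.14, adjusted p = 0.00891), *Nop10* of the H/ACA core (-0.63 ± 0.14), *Nop58* of the C/D core (-0.69 ± 0.15), the assembly factors *Ruvbl2* (-0.63 ± 0.15) and *Rpap3* (-0.87 ± 0.18) and the exosome nuclease *Dis3* (-0.66 ± 0.15). Beside 9.16% of all genes, TGF-β in control cells changed 2 of the list: it raised *Nop10* (0.62 ± 0.14, adjusted p = 0.0288) and lowered *Tcof1*, the nucleolar protein treacle (-1.20 ± 0.19, adjusted p = 0.00601). In control cells 4 of the list had an unadjusted p below 0.05 with edgeR (beside 26.8% of all genes). In the libraries labelled knockout none of the list was called with edgeR or DESeq2 and 1 had an unadjusted p below 0.05 (beside 22.7% of all genes), with *Tcof1* at -0.54 ± 0.18 (adjusted p = 0.117). For the difference of the responses none was called, and 3 had an unadjusted p below 0.05 with edgeR (beside 8.70% of all genes). Fibrillarin (*Fbl*) and *Gar1* had 10.95 and 9.04 CPM on average and standard errors of 0.30 or more, and their values did not pass in any comparison.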

How the data were processed

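NMuMG cells were profiled by RNA-seq in 8 libraries, 2 for each of 4 groups. The values are raw read counts per gene as deposited by the authors. The submitters' processing notes name HISAT2, mm10 and limma without versions, while the study's methods name Rsubread's subjunc, duplicate removal with samtools and DESeq2. How reads were assigned to genes, and whether by strand, is not given in the sources used here. All 37310 row identifiers matched GENCODE vM1, and positions, hosts and sequences were taken from it and its assembly NCBIM37 (mm9). The labels name a total RNA kit and paired reads of 75 bases, and the study's methods an mRNA kit and single reads.

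Counts were scaled by TMM, filtered with filterByExpr and tested with edgeR 4.0.16 (quasi-likelihood, 1 term for each group, all 8 libraries, R 4.3.3), with Benjamini-Hochberg adjustment over 13028 genes. A call required a log2 fold change beyond 0.5 in either direction at an adjusted p below 0.05, and for the difference of responses the adjusted p alone. Standard errors are the absolute log2 fold change over the square root of F. The fit had 4 residual and 5.50 prior degrees of freedom and a common biological coefficient of variation of 0.180. DESeq2 1.42.0, other scalings and filters, a replicate block and leaving out each library were alternatives. Motifs, copies and identities came from Python 3.11.15, Biopython 1.88 and blastn 2.17.0.

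Libraries held 4297832 to 13574397 counts, so that 3 counts were 0.238 to 0.661 CPM. Intervals and floors cover counting error only. Replicates are biological according to the study, and p-values measure the spread between these samples. Named members were the 5 most abundant per length in each class, those called, the 3 with the lowest p in each comparison, the 3 untested ones with most counts, hosts of called members and called genes of the list of snoRNA proteins, beside the members in *Taf1d* introns, neighbours and copies of named members, and those chosen for their replicate values. Members, lists and rules were chosen with earlier results of these data known.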

Additional observations from a re-analysis of the deposited data

How the results depend on the processing

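The number of members called moved with the processing. Without a filter on low counts it was 8 between untreated genotypes (2 as reported), 11 between treated genotypes (3), 10 for TGF-β in control cells (4), 6 in the libraries labelled knockout (1) and 5 for the difference of the responses (0). With only the 4 libraries of a comparison in the fit it was 5, 0, 1 and 3 in the first 4 comparisons. Without a filter the 294 members with any count were tested. Shares of all genes called in these fits are not given, so that the numbers are not results about members alone. DESeq2 called 2 members for TGF-β in the libraries labelled knockout and 1 for the difference of the responses, and a minimum mean of 10 counts left 0 in the libraries labelled knockout. When each library was left out in turn, the numbers ranged from 0 to 2, from 0 to 4, from 0 to 4, from 0 to 2 and from 0 to 0. A lone remaining sample was assumed to vary like the other groups. The cause of these shifts was not tested. RLE factors, TMM factors from protein-coding genes and no threshold on the fold change kept each number within 1.5 times.

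The replicate numbers did not pair the samples over all groups. Deviations from the group means correlated between same-numbered libraries with a coefficient of 0.297 for untreated and treated control cells and from -0.473 to 0.0980 for the other pairs of groups, over 13028 genes. With a replicate block 2, 2, 2, 0 and 0 members were called, and with exchanged numbers in the treated libraries labelled knockout, a setting chosen after seeing the data, 7 between treated genotypes.

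For the 10 called fold changes of the 8 called members, none of 152 values under the alternatives changed sign and 53 lost their call; other named fold changes were not recomputed. The precision is limited by 2 libraries a group and by low counts on most members, which had a median standard error between 0.55 and 0.59 in the 4 comparisons of groups and 0.80 for the difference of the responses.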
